A study of Mus musculus with 2 samples.

Results

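CTCF peaks in the introns of short protein-coding genes were described in the hindbrain of newborn mice. A member is a peak of the authors' optimal reproducible set on chromosomes 1 to 19 whose summit lies in a protein-coding gene under 50 kb and in no gene of 50 kb or more. The summit also lies outside all exons, more than 1 kb from every annotated start site and on a base that is not soft-masked as repeat or low-complexity sequence. The rule uses position, annotation and sequence masking, and the signal entered only through the authors' choice of the reproducible set. Of 62686 optimal peaks, 61263 lay on these chromosomes and 12455 in a protein-coding gene under 50 kb. Leaving out summits in longer genes kept 11882, leaving out exons 7675, and leaving out the surroundings of start sites 5454. The mask left 3932 members (6.27% of the optimal set), which are hosted by 2887 genes.

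The samples were whole hindbrains of B6NCrl mice at postnatal day 0, pooled from several dissections and pulverised, and CTCF-bound DNA was recovered with an anti-CTCF antibody and sequenced (ChIP-seq). There was 1 group of 2 libraries, labelled as biological replicates 1 and 2 but assigned to the same pooled tissue sample, so their spread may be technical only. No other genotype, treatment or age was measured, and the cell types of the hindbrain are mixed in the pool. The files hold peaks and no expression values, so the tissue label could not be checked against marker genes, and they carry no read counts from which a depth could be taken. Intervals below are 95% intervals that cover counting error over peaks, genes or sites only, and comparisons between classes of peaks were not tested, because peaks are not replicates.

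CTCF is a DNA-binding protein with many zinc fingers that reads a long, directional sequence. It stops the cohesin complex as cohesin extrudes chromatin loops, and the direction of its motif decides from which side cohesin is held. Inside genes, bound CTCF has been linked to insulation of promoters from neighbouring enhancers, to pausing of RNA polymerase and to the choice of exons.

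The windows at the strongest members show the kinds of sequence under the summits, with 1 or 2 matches. Each line gives 101 bases of mm10 centred on the summit, printed in the direction of the best match to the CTCF core consensus. Capitals mark every match to this 14-position consensus with at most 2 mismatches on either strand.
Fam129b, chr2:32912568-32912668, plus strand: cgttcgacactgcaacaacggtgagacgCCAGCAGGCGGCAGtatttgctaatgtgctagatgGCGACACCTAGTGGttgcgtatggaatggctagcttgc
Pink1, chr4:138319671-138319771, plus strand: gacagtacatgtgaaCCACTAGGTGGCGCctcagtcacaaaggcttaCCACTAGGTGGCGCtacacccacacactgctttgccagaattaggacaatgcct
Hpca, chr4:129113148-129113248, plus strand: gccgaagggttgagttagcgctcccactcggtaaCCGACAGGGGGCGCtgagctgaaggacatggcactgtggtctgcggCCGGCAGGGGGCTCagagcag
Cpsf4l, chr11:113703869-113703969, plus strand: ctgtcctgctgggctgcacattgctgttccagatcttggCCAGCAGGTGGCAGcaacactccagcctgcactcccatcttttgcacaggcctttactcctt
Acox3, chr5:35595885-35595985, plus strand: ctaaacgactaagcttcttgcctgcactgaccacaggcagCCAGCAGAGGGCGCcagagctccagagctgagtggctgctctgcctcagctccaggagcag
Pmp22, chr11:63135755-63135855, minus strand: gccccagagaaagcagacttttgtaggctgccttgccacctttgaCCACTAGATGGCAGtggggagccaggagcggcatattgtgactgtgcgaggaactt
The site in Fam129b held matches on both strands with the same number of mismatches. The site in Pink1, which encodes a mitochondrial kinase, held a pair of perfect copies of CCACTAGGTGGCGC in the same direction. In Hpca, the gene of the neuronal calcium sensor hippocalcin, 2 matches also pointed the same way. Cpsf4l, Acox3 (a peroxisomal acyl-CoA oxidase) and Pmp22 (a myelin protein) each held 1 perfect match.

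The signal value is the authors' own, on a scale of the peak caller that is not stated, and serves here to rank peaks within a list. The member in intron 5 of Fam129b (chromosome 2, 32912435 to 32912796) had the largest signal of all optimal peaks, 684.6, and held ranks 4 and 2 in libraries 1 and 2. Pink1 intron 3 (chromosome 4, 138319528 to 138319886) followed with 636.0 and ranks 7 and 20. In Hpca intron 4 (chromosome 4, 129113042 to 129113383) the signal was 584.8, with ranks 22 and 77. These 3 sites were thus near the top of both library lists.

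A peak inside Th, the gene of tyrosine hydroxylase that starts catecholamine synthesis, had a signal of 584.7 and ranks 77 and 22. It lay 11.7 kb from the gene's 5' end and outside the introns of the transcript chosen for intron numbering. Emid1 intron 13 reached 582.5 and Cpsf4l intron 3 reached 567.6. Others of the 12 strongest lay in Fgd2 (556.3), a guanine exchange factor gene, in Acox3 (545.0), Pmp22 (544.4), the ribosomal RNA processing gene Rrp15 (531.9) and the renin gene Ren1 (530.6). All 12 lay in the conservative set as well. Matches pointed against the direction of the host gene in 8 of the 10 sites with a match on 1 strand, with Th and Acox3 as the exceptions. No such excess was seen over the strongest of 4 equal signal classes of the optimal set, where 584 of 1184 members with a match on 1 strand (49.3%, Wilson interval 46.5 to 52.2) had it on the sense strand of the host.

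At the other end, the 3 weakest members had signals of 7.08 in Tra2b intron 1, 7.20 in Mansc4 intron 2 and 7.29 in Tbc1d2 intron 10. Each lay 201 to 215 bp from another optimal summit, none was in the conservative set, and their best sequences had 6, 4 and 5 mismatches. Mansc4 overlapped no peak of library 1. No pair of optimal summits was closer than 199 bp, and 83 members had another optimal summit within 320 bp. In 75 members (1.91%) the matching peak in library 1 also served another optimal peak.

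Most members, like most optimal peaks, were among the strongest peaks of both libraries. The optimal set was selected for reproducible ranks in these same libraries, so a high share was largely fixed in advance. Among the 62686 strongest peaks of each library, 3406 of 3932 members (86.6%, Wilson interval 85.5 to 87.7) were overlapped by at least 1 bp in both, beside 83.2% of all optimal peaks on chromosomes 1 to 19. The share was 83.9% for the 12991 peaks in introns of long genes, chosen in the same way but in protein-coding genes of 50 kb or more, and 87.1% for the 16489 intergenic peaks under the same mask and distance rule. Of the members, 3506 (89.2%) overlapped a conservative peak, against 87.0% of all optimal peaks. In the full lists, 2 members had no peak in library 1 and 18 had none in library 2. Spearman's rho between the ranks in the libraries was 0.964 over 3912 members, a description across peaks that share the pooled tissue and that were selected for reproducible ranks.

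The largest rank differences belonged to weak members. The site in Marveld2 intron 1 held rank 49239 in library 1 and 288056 in library 2, with a signal of 23.7 in the optimal set. Slc45a1 intron 4 held ranks 58993 and 284572, and Il17d intron 2 ranks 44518 and 275513. All 3 stood higher in library 1, and none lay in the conservative set. The Marveld2 site had a match with 1 mismatch, CCAGCAGAGGGCAT, while the other two had none.

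**Figure D1:**
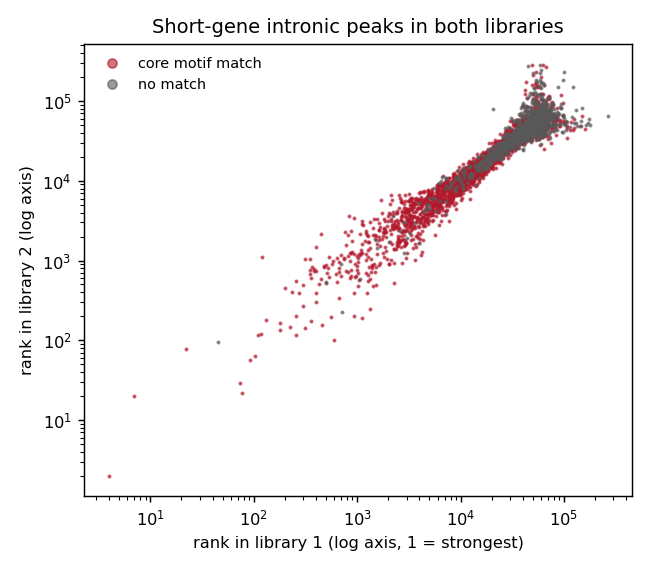
Rank of each member in library 1 (x axis) and library 2 (y axis), both log axes with 1 as the strongest, for the 3912 members in both lists; red points hold a core motif match and grey points hold none. On these log axes the cloud is narrow through the middle ranks and wider at both ends, and points without a match gather at the weak end.

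Members had more signal than peaks in long-gene introns. Their median signal was 105.0 (quartiles 43.0 and 244.2), against 78.3 in introns of long genes, 113.7 in intergenic peaks and 73.8 over all optimal peaks on chromosomes 1 to 19. Of 4 equal classes of the optimal set by signal, the strongest held 33.3% (Wilson interval 31.8 to 34.8) of the members, against 25.6% (24.9 to 26.4) of long-gene intronic peaks and 35.2% of intergenic peaks. In each library the order was the same. The median signals in library 1 were 63.6, 46.1 and 67.4 among its 62686 strongest peaks, in the order members, long-gene introns and intergenic, and in library 2 they were 41.2, 31.0 and 45.7. By signal the members thus lay nearer to intergenic peaks than to those in long-gene introns.

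Peaks were denser in the introns of short genes than in those of long genes. The sequence that could hold a member, called searchable here, amounted to 100.3 Mb, and the members to 39.2 per Mb (exact Poisson interval 37.97 to 40.43). Searchable introns of long genes held 26.8 per Mb (26.3 to 27.3) and searchable intergenic sequence 22.6 per Mb (22.2 to 22.9). The ratio of short to long genes was 1.46 (exact binomial interval 1.41 to 1.52), and it was 1.46 in library 1 and 1.45 in library 2. Density changed with gene length in a graded way. It was 40.1 per Mb in genes under 10 kb, 42.9 from 10 to 20 kb, 40.5 from 20 to 30 kb, 39.0 from 30 to 40 kb and 34.4 from 40 to 50 kb. Just past the limit, genes of 50 to 100 kb also had 34.4 per Mb, and those of 500 kb and over had 18.4. No step was thus seen at 50 kb.

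**Figure D2:**
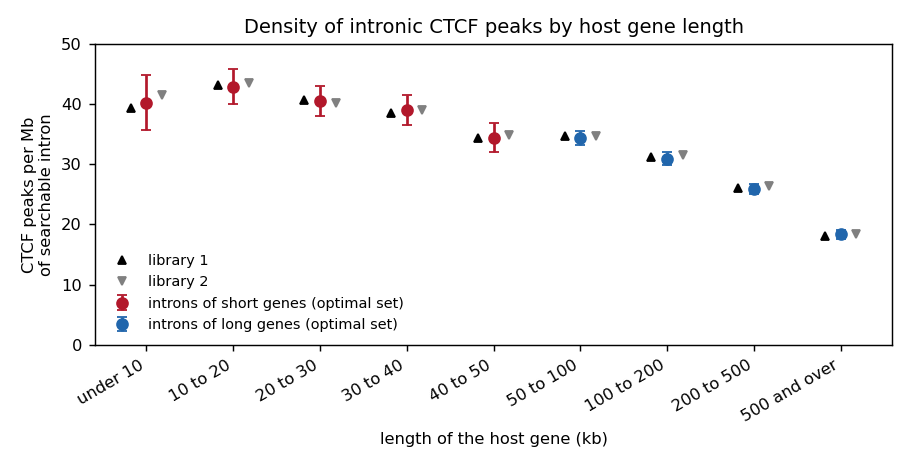
CTCF peaks per Mb of searchable intron (y axis) by host gene length in kb (x axis); circles with 95% Poisson intervals are the optimal set, red for short and blue for long genes, and triangles are the 62686 strongest peaks of each library. Density lies between 34.4 and 42.9 per Mb in the 5 classes under 50 kb and declines to 18.4 per Mb in genes of 500 kb and over, with both libraries close to the optimal set.

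Base composition moved with this difference. Windows of 1 kb with over 54% GC made up 6.56% of searchable short-gene intron, against 1.86% of long-gene intron and 0.982% of intergenic sequence. Density rose with GC in each class, among members from 13.1 per Mb under 38% GC to 92.1 per Mb over 54% GC. With the long-gene density standardised to the GC classes of short-gene introns, long genes had 36.4 per Mb and the ratio was 1.08. Within classes the order was not constant. Under 38% GC, short-gene introns held 13.1 per Mb (11.1 to 15.3), long-gene introns 11.04 (10.4 to 11.7) and intergenic sequence 6.70 (6.37 to 7.05). Over 54% GC they held 92.1 (84.9 to 99.7), 102.3 (95.8 to 109.1) and 128.6 (120.4 to 137.2), in the same order of classes.

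**Figure D3:**
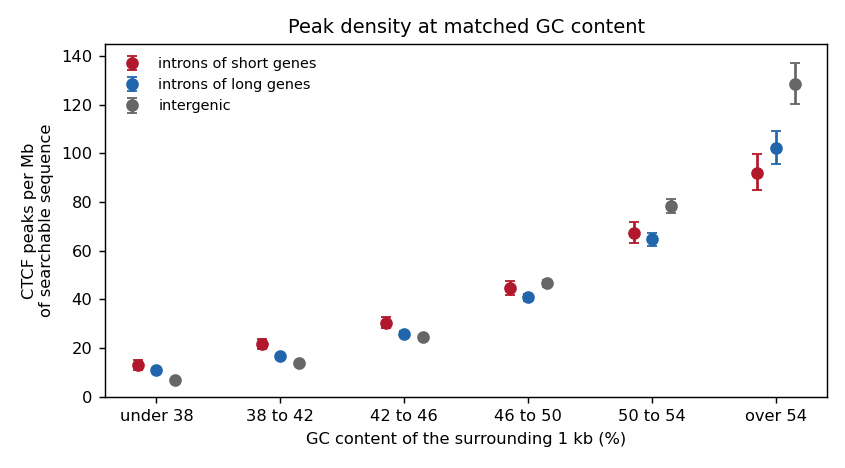
CTCF peaks per Mb of searchable sequence (y axis) by the GC content of the surrounding 1 kb in percent (x axis), for introns of short genes (red), introns of long genes (blue) and intergenic sequence (grey), with 95% Poisson intervals. Short-gene introns lie above intergenic sequence under 46% GC and below it over 50% GC.

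Among chromosomes, member density ran from 25.9 per Mb of searchable intron on chromosome 3 (Poisson interval 21.6 to 30.7) to 48.9 on chromosome 11 (44.2 to 53.95).

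The core motif was found at most members. Up to 50 bp from the summit, 2792 of 3932 members held a match with no more than 2 mismatches (71.0%, Wilson interval 69.6 to 72.4), beside 65.3% of all optimal peaks on chromosomes 1 to 19. Long-gene intronic peaks had 64.8% (63.9 to 65.6) and intergenic peaks 70.9% (70.2 to 71.6). Windows of the same size 1 kb to the left and right of the members held a match in 3.48% and 3.99%. Perfect matches were found in 503 members (12.8%, interval 11.8 to 13.9), against 9.31% of long-gene intronic peaks and 12.6% of intergenic peaks. A shorter pattern, the 8 most fixed letters of this consensus searched on both strands without mismatch, occurred in 29.3% of members, against 24.2% of long-gene intronic peaks, 28.6% of intergenic peaks and 30.8% of all optimal peaks.

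Signal followed the match. Members with a perfect match had a median signal of 275.7 (quartiles 175.2 and 365.0), those with 1 mismatch 186.6, with 2 mismatches 87.3, with 3 mismatches 51.2 and with 4 mismatches 37.2. Among the strongest peaks of both libraries were 99.0% of members with a perfect match and 63.3% of those whose best sequence had 4 mismatches. Over these 4 signal classes of the optimal set, a match was present in 41.6%, 56.9%, 77.5% and 92.4% (90.9 to 93.7) of members from the weakest to the strongest class. In the strongest class, long-gene intronic peaks had 89.1% (87.99 to 90.1) and intergenic peaks 88.6% (87.8 to 89.4). In class 2 the shares were 56.9%, 56.4% and 58.9% in the same order of classes, with overlapping intervals.

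**Figure D4:**
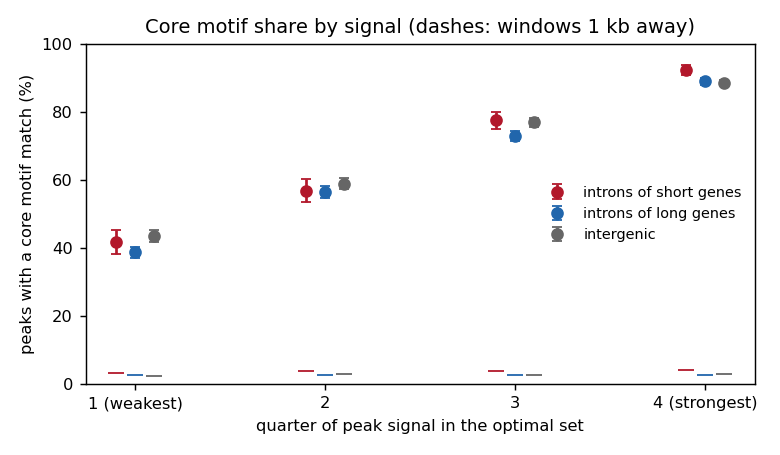
Share of peaks with a core motif match in percent (y axis) by signal class of the optimal set, 4 of equal size from weakest to strongest (x axis), for introns of short genes (red), introns of long genes (blue) and intergenic peaks (grey), with 95% Wilson intervals; dashes give the mean share in windows 1 kb to the left and right. The share in members climbs from 41.6% to 92.4% while the windows 1 kb away stay between 3.29% and 4.09%.

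The letters within the matches were read in the direction of the consensus, with positions counted from 1 at its 5' end, in the 2731 members whose best match lay on 1 strand. Only sequences with at most 2 mismatches to the consensus were counted, so high shares of its letters were partly set by the search. The consensus itself allows C or G at position 4 and G or T at position 9. Within this limit the most fixed positions were 7 (G in 98.6%), 2 (C in 98.2%) and 10 (G in 98.2%). Position 4 was C in 53.8% and G in 42.8%, and position 9 was G in 62.1% and T in 33.9%. In long-gene introns position 9 was G in 57.0% and T in 38.8%. A CpG, the dinucleotide that DNA methylation acts on, stood within the match in 868 members (31.8%, Wilson interval 30.1 to 33.6), against 27.0% (26.1 to 28.0) of matches in long-gene intronic peaks. The summit lay a median of 0.5 bp from the centre of the match in motif direction (quartiles -5.5 and 6.5 bp), and within 20 bp of it in 88.9%. Median GC content within 100 bp of the summit was 50.7% in members and 48.8% in both other classes. At least 1 CpG lay in this span in 89.1% of members, beside 87.8% of all optimal peaks.

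The search was also run the other way, over all matches in searchable sequence, to ask which were occupied. A match counted as occupied when an optimal summit lay within 50 bp. Introns of short genes held 565 perfect matches, of which 499 (88.3%, Wilson interval 85.4 to 90.7) were occupied. In long-gene introns 89.5% (87.7 to 91.0) of 1360 were occupied, and in intergenic sequence 85.9% (84.5 to 87.2) of 2413. With 1 mismatch the occupied share dropped to 39.4% (37.7 to 41.2) of 2954 matches in short-gene introns, 35.2% (34.2 to 36.1) in long-gene introns and 36.4% in intergenic sequence. With 2 mismatches it was 5.31%, 4.66% and 4.54%, in the same order of classes. The density of the matches themselves differed more than their occupied share. Perfect matches numbered 5.63 per Mb in short-gene introns, 2.81 in long-gene introns and 3.30 in intergenic sequence, and matches with 1 mismatch 29.4, 20.1 and 18.2 per Mb.

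Matches that held a CpG were occupied more often. Among perfect matches in short-gene introns, 187 of 194 with a CpG (96.4%, Wilson interval 92.7 to 98.2) were occupied, against 312 of 371 without one (84.1%, 80.0 to 87.5). With 1 mismatch the shares were 57.1% (53.3 to 60.8) with a CpG and 34.2% (32.3 to 36.2) without. The same order held in long-gene introns, at 94.0% and 87.5% of perfect matches. A CpG also changes which letters stand in the match, and its own part was not tested.

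Motif direction showed no overall preference for the direction of the host gene. The best match lay on the sense strand of the host in 1346 of 2714 members (49.6%, Wilson interval 47.7 to 51.5), leaving out 61 members whose best matches tied between strands and 17 with hosts on both strands. Close to the gene start, antisense matches were more common. From 1 to 5 kb from the gene's 5' end, 44.7% (40.6 to 48.8) of 553 matches were sense, from 5 to 20 kb 52.4% (49.8 to 55.0) and from 20 to 50 kb 47.8% (44.3 to 51.4). In the first 5 kb the sense share was 46.9% (42.8 to 51.02) in library 1 and 44.7% (40.5 to 48.9) in library 2, so the interval reached 50% in library 1. For the first 20% of the gene's length it was 43.5% (38.5 to 48.5) in short genes and 56.9% (54.3 to 59.5) in long genes, where this part spans more bases. At the same distances, long genes had 55.2% (49.0 to 61.3) of 248 matches sense from 1 to 5 kb. They had 58.3% (54.7 to 61.8) from 5 to 20 kb and 49.5% (47.1 to 51.9) from 20 to 50 kb. Over all long-gene intronic peaks the sense share was 47.0% (45.9 to 48.1). By first intron the sense share was 45.4% (41.5 to 49.3) in short and 48.8% (46.3 to 51.4) in long genes.

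Where neighbouring motif-bearing peaks both lay in introns of 1 short gene, the 467 pairs stood a median of 5013 bp apart. They pointed the same way in 52.0% (47.5 to 56.5), towards each other in 21.0% (17.5 to 24.9) and apart in 27.0% (23.2 to 31.2). Pairs in 1 long gene and under 20 kb apart pointed the same way in 55.8%, towards each other in 19.3% and apart in 24.9%, against 50.8%, 21.1% and 28.1% for short-gene pairs under the same limit. At 202 members (5.14%, Wilson interval 4.49 to 5.87), 2 separate matches lay within 100 bp of the summit, beside 3.84% of long-gene intronic peaks, 4.24% of intergenic peaks and 4.20% (4.05 to 4.36) of all optimal peaks on chromosomes 1 to 19. The median distance between their starts in members was 57.5 bp. These matches lay on the same strand in 54.5% (47.6 to 61.2), and the median signal of their peaks was 203.1, against 159.6 in the 2592 other members with a match.

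Along the gene, members near the 5' end were weaker and held the motif less often. The gene was cut into 10 sections of equal length, numbered from the 5' end. In section 1, 54.5% of 275 members had a match and the median signal was 59.2. In section 9, 78.1% had one and the median signal was 151.5. The motif shares were 58.4% and 78.1% in library 1 and 59.2% and 75.7% in library 2 for these same sections. Density was lowest in section 2 at 31.1 per Mb (27.9 to 34.5) and reached 45.8 (41.6 to 50.3) in section 9. Section 1, of which only sequence more than 1 kb from any start site was searched, had 44.3 (39.2 to 49.9).

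**Figure D5:**
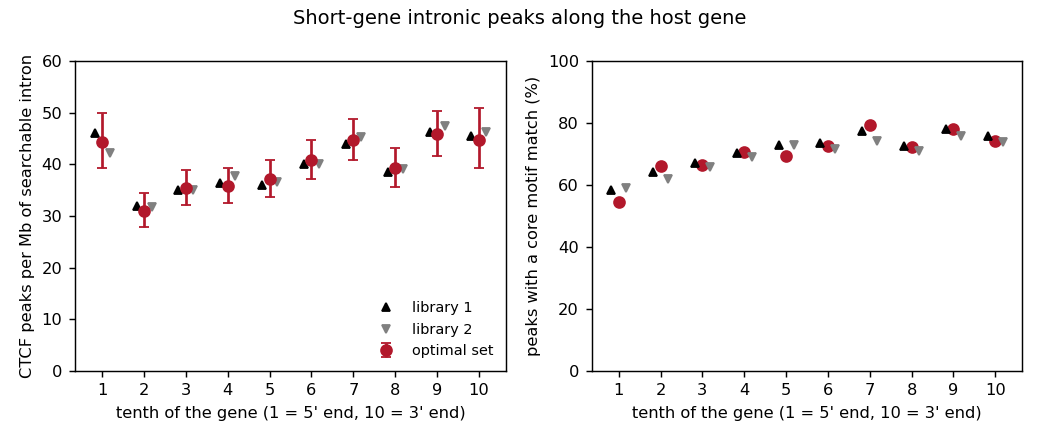
Members along their host gene in 10 sections from the 5' end to the 3' end (x axes); the left panel gives CTCF peaks per Mb of searchable intron with 95% Poisson intervals and the right panel the percentage with a core motif match. Red circles are the optimal set and triangles the 62686 strongest peaks of each library; the motif share is lowest in section 1, at 54.5%, and reaches 79.3% in section 7.

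Introns were numbered in 1 transcript per gene. First introns held 1030 members, or 36.9 per Mb (34.7 to 39.2), and later introns 2647, or 39.2 per Mb (37.8 to 40.8). The remaining 255 members lay outside the introns of the chosen transcript, at 51.3 per Mb (45.2 to 58.0). For first introns, the share of members over the share of searchable sequence was 0.942 (0.893 to 0.992). With a distance of 500 bp from start sites in place of 1 kb it was 1.01 (0.965 to 1.05), and the intervals overlapped. First-intron members had a median signal of 71.0 and a match in 61.8%, against 121.9 and 74.6% in later introns. Distance to the nearest exon showed less change. Density was 41.4 per Mb (37.4 to 45.8) within 100 bp of an exon and 38.7 (37.02 to 40.5) at 1 kb or more, and median signals were 114.6 and 95.6.

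Of 12720 short protein-coding genes with searchable intron, 2887 (22.7%) hosted a member. Most of these had 1 (2106 genes), 576 had 2, 158 had 3 and 39 had 4. Hosts were longer than other searchable genes, with a median of 25.8 kb against 12.03 kb, and held a median of 12.4 kb of searchable intron against 4.03 kb. Hosts also had a CTCF peak within 1 kb of one of their own start sites more often. This was so for 1378 of 2887 hosts (47.7%, Wilson interval 45.9 to 49.6) and 3561 of 9833 other searchable genes (36.2%, 35.3 to 37.2), beside 38.8% of all. In library 1 the shares were 49.2% and 37.5%, and in library 2 they were 48.01% and 36.9%. Among genes with 10 kb or more of searchable intron they were 47.8% (45.4 to 50.1) and 42.4% (40.4 to 44.5), and with 1 to 3 kb 53.0% (46.1 to 59.9) and 30.1% (28.3 to 32.0). The GC content of these genes was not held fixed, and its part was not tested.

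Rara, the gene of retinoic acid receptor alpha, which relays the retinoid signal that patterns the hindbrain, held the most members. Its 7 sites had signals of 48.6, 148.9, 23.5, 210.0, 51.8, 111.6 and 368.4 in order from the 5' end. The strongest lay in intron 7 (chromosome 11, 98972285 to 98972537), and the perfect match CCAGTAGGGGGCGC was at the site in intron 2 with a signal of 210.0. Matches were sense at 2 sites and antisense at 3, and 2 sites had none. The third site from the 5' end was outside the conservative set and stood at rank 101402 in library 1 and 52937 in library 2.

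D630003M21Rik held 6 members, with signals from 41.4 to 477.3. Its strongest site, in intron 10, held the perfect match CCACCAGGGGGCGC. Gm44511 also had 6, from 52.9 to 419.2, all in intron 3, and of these 2 adjoining summits 210 bp apart corresponded to the same peak in each library. Bcl6, a gene of a transcriptional repressor, had 5 in its first intron within 3.05 kb, with signals from 111.6 to 393.9. The strongest of these held the perfect match CCACTAGGTGGCGG. Cdh3, which encodes P-cadherin, had 5, from 26.4 to 218.2, and the 3 nearest to the 5' end held antisense matches with 2 mismatches. Whether these 3 sites are copies of the same repeat was not tested.

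Hosts were next counted in 12 gene lists, beside the background of 22.7% of searchable short genes and 39.2 members per Mb. The lists hold between 11 and 33 searchable genes, so their intervals are wide. Host shares were not matched for gene length or searchable intron. Over all searchable short genes the share rose from 6.33% under 10 kb to 48.4% at 40 to 50 kb. In Wnt signalling, a pathway of secreted ligands that acts on cell fate through beta-catenin, 12 of 21 searchable genes (57.1%) hosted 19 members, or 59.2 per Mb (Poisson interval 35.6 to 92.4). The strongest was in Bcl9l intron 5, the gene of a beta-catenin coactivator, with a signal of 406.1 (library ranks 2568 and 1758). Next was the ligand gene Wnt4, intron 1, with 374.1 (3419 and 3434). In Notch signalling, which acts between touching cells, 7 of 20 (35%) hosted 11 members, or 65.9 per Mb (32.9 to 118.0). The receptor gene Notch3, intron 2, had 250.6 and the ligand gene Jag1, intron 2, had 240.6, both with antisense matches.

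Among genes of DNA methylation and histone deacetylation, 9 of 21 (42.9%) hosted 15 members, or 77.8 per Mb (43.5 to 128.3). It was 1 of the 12 lists, and the only one, whose interval lay wholly above the 39.2 per Mb of all searchable short genes. Mta1, a subunit gene of the NuRD complex, had a signal of 435.3 in intron 3, and the corepressor gene Sin3b 357.0 in intron 10. Of synaptic vesicle genes 8 of 18 (44.4%) were hosts, at 51.9 per Mb (24.9 to 95.4). Unc13a, whose product primes vesicles for release, had 404.2 in intron 8, and the complexin gene Cplx2 had 337.1 in intron 1. Glycolysis had 4 hosts of 11 (36.4%), or 68.8 per Mb (27.6 to 141.7). Its hosts were led by the enolase gene Eno1 (500.3 in intron 2) and the pyruvate kinase gene Pkm (343.1 in intron 1).

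DNA replication genes had 8 hosts of 33 (24.2%), or 34.7 per Mb (15.9 to 65.9), led by the helicase gene Cdc45 (336.1) and the ligase gene Lig1 (242.7). Respiratory complex I had 7 of 30 (23.3%), or 49.5 per Mb (19.9 to 102.0), with Ndufab1 at 343.5 and Ndufa7 at 335.5. Both host shares were near the background. Lysosomal enzyme genes had 3 hosts of 25 (12%), or 21.4 per Mb (5.82 to 54.7), led by Idua (77.2) and Ctsl (76.2). Splicing factors of the SR family and U2 had 2 of 26 (7.69%), or 21.6 per Mb (4.46 to 63.2). These were the splicing regulators Tra2a (195.9) and Tra2b (24.2).

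Genes listed under sarcomere, T cells and keratins were hosts as well, and their expression in the hindbrain was not measured. Sarcomere genes, which build the contractile units of muscle, had 10 hosts of 26 (38.5%) and 60.7 per Mb (34.0 to 100.1). A core match was present in 93.3% of their 15 members, beside 71.0% of all members, and the share varied widely between these small lists, with 52.6% of 19 members in the Wnt list, 60% of 15 in the DNA methylation list, 60% of 10 in the synaptic list and 100% of 3 each in the T cell and keratin lists. Myl4, a myosin light chain gene, had a signal of 430.2 and the troponin gene Tnni1 had 348.6 with the perfect match CCACCAGGGGGCGC. T cell genes had 3 hosts of 24 (12.5%), at 14.2 per Mb (2.93 to 41.5), and the chemokine receptor gene Ccr7 (464.8) and the transcription factor gene Gata3 (313.4) led them. The Myl4, Tnni1 and Gata3 sites lay outside the introns of the transcript chosen for intron numbering. Keratin genes had 3 hosts of 31 (9.68%), at 30.4 per Mb (6.27 to 88.8), led by Krt28 (149.0) and Krt7 (64.4).

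The sites on each side of the limits of the rule had these values. Just under the length limit, the site in the homeobox gene Hoxc5 (gene length 49987 bp) had a signal of 349.8 and that in Gm28308 (49981 bp) had 205.2. The Hoxc5 site lay outside the introns of the chosen transcript. Just over the length limit, P4ha1 (50009 bp) had 68.8 and Dap (50028 bp) had 167.6. Just past 1 kb from a start site, the member in Foxa1 (1002 bp) had 105.3 and that in Egr1, an immediate early gene (1004 bp) had 25.9. Just inside that distance and so left out, Mtch1 (1000 bp) had 15.6 and Sdc3 (998 bp) had 30.6.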

How the data were processed

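Both libraries came with peak lists on mm10 in narrowPeak layout, per the deposited descriptions: 300000 peaks for each library against a control, 251251 for the pooled alignments, and the conservative (59979) and optimal (62686) sets, which the authors derived by the irreproducible discovery rate. The deposited signal is a score with no stated unit. The deposited q value, on a −log10 scale, was at its maximum in 84.0% of members and was not used for ranking. The summit was the start plus the deposited summit offset. Which aligner, caller and thresholds were used is not given in the sources used here.

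Genes, exons and start sites were those of GENCODE vM21, on the GRCm38 assembly of mm10. The mask was the soft-masking of the RefSeq copy of that assembly, which can differ from other copies. Whether repeat copies remain among the unmasked summits was not tested. When genes overlapped, the longest protein-coding gene was taken as host. One transcript a gene (APPRIS principal, then longest coding sequence) gave intron numbers. The 14-position core consensus was searched on both strands in 101 bp. In all of 2000 simulated windows the implanted match got its exact number of mismatches, read at its known position and strand. Whether the search picked that position and strand as the best was not tested. Some peaks that the naming rule would give are not reported here. Named peaks are the 12 strongest and 3 weakest, those of the 5 hosts with most, 2 per gene list, the 3 with the largest rank difference, and those beside each limit of the rule. Members, lists and this rule were chosen with earlier results of these data known. Python 3.11.15, NumPy 2.4.6, pandas 2.3.3 and SciPy 1.17.1 were used. Alternatives were another peak set, each library alone, other limits of the rule, other motif settings and other overlaps.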

Additional observations from a re-analysis of the deposited data

How the results depend on the processing

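Leaving out each library in turn gave 3929 to 3959 members, a density ratio of short to long genes of 1.453 to 1.457, a motif share of 70.0% to 71.5%, a sense share of 49.907% to 49.908%, a first-intron ratio of 0.920 to 0.951 and hosts in 22.5% to 22.7% of searchable genes. The conservative set gave 21.9% hosts. The strongest 31343 optimal peaks gave 2319 members, a density ratio of 1.67, a motif share of 85.9%, a first-intron ratio of 0.767 and 15.2% hosts. A length limit of 30 kb gave 2185 members and 17.3% hosts, and one of 100 kb gave 7142 members, a motif share of 69.0% and 29.3% hosts. A start-site distance of 500 bp gave a motif share of 68.3%, 24.4% hosts and a first-intron ratio of 1.01, on the other side of 1. The interval of that ratio, 0.965 to 1.05, included 1. A distance of 2.5 kb gave 72.7% with the motif and 20.3% hosts. With summits on soft-masked bases kept, the density ratio was 1.54, the motif share 73.7%, the host share 28.5% and the share among the strongest peaks of both libraries 84.4%. That last share was 77.5% with a reciprocal overlap of 50% and 84.9% with summits within 50 bp. The motif share was 42.4% with at most 1 mismatch, 88.9% with at most 3, 62.2% within 25 bp of the summit, 73.0% within 100 bp and 29.3% for the most fixed positions. Standardising for GC gave a density ratio of 1.08. Merging summits under 150 bp apart changed none of the 7 results, because no optimal summits were that close. The sense share ran from 48.5% to 51.5% over the alternatives tried for it, on both sides of 50% and within its counting interval of 47.7% to 51.5%. The cause of the other shifts was not tested, beyond the settings that by construction admit more or fewer peaks or matches. No paired analysis was possible because the labels give 1 group only. With no read counts in the files, no limit set by depth can be given.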

Other observations

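The pooled list held further candidate sites under the same rule. Of its peaks in searchable short-gene introns, 11466 overlapped no optimal peak. Their median signal was 9.12, and 1471 of them had a core motif match at most 50 bp from the summit (12.8%, Wilson interval 12.2 to 13.5). The 3988 pooled peaks that overlapped an optimal peak had a median signal of 102.9 and a match in 70.2% (68.7 to 71.6). The strongest pooled peak outside the optimal set had a signal of 53.9. Of the 66 perfect matches in short-gene introns without an optimal summit, 19 had a pooled summit within 50 bp.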
